A study of Mus musculus with 10 samples.

Results

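The libraries described here are 7 of the 10 mammary gland libraries of the series, chosen by their measured levels of *Ighd* and *Ucp1* RNA. The rule first kept libraries with fewer than 50 raw CPM (the count of a gene scaled by the sum of counts over all genes) of *Ighd*, an immunoglobulin heavy chain gene of B cells, and then separated those above 60 raw CPM of *Ucp1* (T1324, T2214, T2234 and T2314) from those below (T1224, T1314 and T2224). All 10 libraries were made from the intact right thoracic fat pads of virgin female C57BL/6 mice at postnatal day (PND) 130, 4 weeks after the end of feeding on a control folic acid diet (CFA, 1 mg FA/kg) or a high folic acid diet (HFA, 5 mg FA/kg). Diet was unevenly spread over the sets, since the 4 libraries with high *Ucp1* were 1 CFA and 3 HFA and the 3 with low *Ucp1* were 2 CFA and 1 HFA, so diet and the *Ucp1* level cannot be fully told apart. The sets were made from a measured level and are not treatment groups, and every difference between them describes what goes along with *Ucp1* RNA. Libraries are named by their sample titles, with 1 library per mouse.

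*Ucp1* encodes uncoupling protein 1, which lets protons back across the inner mitochondrial membrane so that the energy of respiration is released as heat. It marks brown adipocytes and the beige adipocytes that arise within white fat after cold or beta-adrenergic stimulation. The mammary epithelium lies in a fat pad, and in mice the thoracic pad is close to the brown fat of the shoulder region and to muscle of the chest wall. Brown and beige adipocytes are rich in mitochondria, burn fatty acids and branched-chain amino acids, and express *Cidea*, a lipid droplet protein, and *Elovl3*, an elongase of very long chain fatty acids.

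By the raw values used for the rule, *Ucp1* was at 1.69 CPM in T1224, 5.08 in T2224 and 36.3 in T1314 (low), and at 118 in T1324, 206 in T2214, 721 in T2234 and 847 in T2314 (high). The libraries nearest the threshold were thus T1314 below and T1324 above. *Ighd* was at most 1.77 raw CPM in these 7 libraries and 124, 283 and 981 in the 3 outside the rule, T1234, T1334 and T2334, which held 86.0, 290 and 1047 CPM of *Ucp1*. The summed level of the B and T cell markers, *Ighd* left out, was 45.2 to 115 CPM in the 7 libraries and 791 to 5014 CPM in the other 3. *Ucp1* therefore varied widely in both kinds of library. In the 7, it was backed by 22 to 11276 reads, from totals of 7672199 to 14829291 reads on genes.

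The promoters of *Ucp1* and of the 3 thermogenic genes with the largest differences among those that did not overlap between the sets and had a RefSeq (GRCm38.p6) promoter at hand are shown, since the RNA levels of these genes are described next. Each is the 250 bases before the annotated start of transcription, 5′ to 3′ on the strand of the gene. Capitals mark matches, on either strand, to AAGGTCA, an extended half-site of estrogen-related and other nuclear receptors, and to TGACG, a half-site of cyclic AMP response elements.
Ucp1, chr8:83290098-83290347, + strand: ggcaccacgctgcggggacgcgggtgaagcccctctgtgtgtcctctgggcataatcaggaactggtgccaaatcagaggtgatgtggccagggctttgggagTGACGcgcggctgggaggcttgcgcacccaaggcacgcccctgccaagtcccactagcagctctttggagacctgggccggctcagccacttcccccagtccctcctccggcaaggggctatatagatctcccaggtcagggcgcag
Slc27a2, chr2:126552774-126553023, + strand: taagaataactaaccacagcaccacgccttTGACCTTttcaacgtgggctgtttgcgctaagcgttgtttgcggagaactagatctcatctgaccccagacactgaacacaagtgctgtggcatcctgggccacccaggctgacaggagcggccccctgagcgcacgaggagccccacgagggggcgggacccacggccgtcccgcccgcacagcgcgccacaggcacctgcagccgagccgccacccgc
Ppara, chr15:85735526-85735775, + strand: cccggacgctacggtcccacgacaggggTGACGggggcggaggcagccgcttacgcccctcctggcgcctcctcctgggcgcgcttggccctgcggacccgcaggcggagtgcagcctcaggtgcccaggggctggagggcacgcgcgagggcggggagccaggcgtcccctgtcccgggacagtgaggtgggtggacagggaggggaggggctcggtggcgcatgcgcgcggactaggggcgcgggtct
Cox8b, chr7:140900447-140900696, - strand: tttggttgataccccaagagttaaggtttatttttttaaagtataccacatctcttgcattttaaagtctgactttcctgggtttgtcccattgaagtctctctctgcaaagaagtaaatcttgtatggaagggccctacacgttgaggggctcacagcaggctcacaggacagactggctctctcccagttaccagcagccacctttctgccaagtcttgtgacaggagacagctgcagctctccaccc
The TGACG match lies 147 bases before the start of *Ucp1* and 222 before that of *Ppara*, and the AAGGTCA match of *Slc27a2* lies 220 bases before its start on the opposite strand. Of 27025 promoters of this length, 17.9% held TGACG and 4.05% held AAGGTCA. Among 27 promoters of the thermogenic list the shares were 18.5% and 3.7%, close to those of all genes. Among 43 promoters of nuclear respiratory chain genes, described further on, they were 34.9% and 4.65%. A match is a run of letters and no measure of binding.

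From here on levels are CPM after TMM scaling (edgeR's correction for library composition) over the 10 libraries, and differences are fitted log2 fold changes, high minus low *Ucp1*, with their standard error (SE). On this scale *Ucp1* averaged 526 ± 426 CPM (SD, n = 4) in the high and 14.3 ± 18.8 CPM (n = 3) in the low libraries. *Ucp1* and *Ighd* were left out of the 15757 genes tested. In the quasi-likelihood fit of edgeR, with p-values adjusted by the Benjamini-Hochberg method, 0 genes passed the threshold of 0.05 (0% of those tested), the smallest adjusted p being 0.0683. An unadjusted p under 0.05 was found for 2191 genes (13.9%), of which 1142 were higher (7.25%) and 1049 lower (6.66%) in the high libraries. The likelihood ratio test called 87 genes, DESeq2 141 and limma voom 0. The genes below are therefore described by their values, by whether the sets overlap and by their fold changes, and none is called changed. In the background of all genes tested, all 4 high libraries lay above all 3 low libraries for 5.09% of genes and below them for 7.94%, 49.0% of genes had a log2 fold change above 0 and the median was -0.01. In a short list, a count of 0 genes apart is therefore not read as a result.

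*Cidea* and *Elovl3*, other markers of brown and beige fat, were chosen with earlier results of these data known. That they went along with *Ucp1* is therefore no independent support for the label of the sets. *Cidea* was at 7.23 CPM in T1224, 11.7 in T2224 and 43.3 in T1314, against 52.7 in T1324, 65.2 in T2214, 245 in T2234 and 396 in T2314. *Elovl3* was at 0.85, 0.52 and 5.72 CPM in the same 3 low libraries and at 9.11, 9.51, 79.3 and 34.1 CPM in the same 4 high libraries. Neither gene overlapped between the sets, and both separated T2234 and T2314 from the other 5 libraries. T1314, the low library nearest the threshold, stood next to T1324 for both genes, so that the markers form a graded series.

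Of the 34 genes of the thermogenic list, 30 were tested, *Ucp1* set the rule, and *Bmp8b*, *Tnfrsf9* and *Zic1* fell under the filter on low counts. The log2 fold change was above 0 for 27 of the 30 (49.0% of all genes), with a median of 1.06. This median was 0.77 with diet as a term and 0.84 without T1224. As differences of mean log2 CPM, which are not fitted, the median was 0.65 within the CFA libraries alone and 0.59 within the HFA libraries alone. These values have no test. In 8 of the 30 the high libraries all lay above the low, beside 5.09% of all genes, and in 0 they lay below.

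*Slc27a2*, a fatty acid transporter and acyl-CoA synthetase, had the largest difference of the list. It was at 0.14 CPM in T1224, 0.26 in T2224 and 1.46 in T1314, and at 3.82 in T1324, 5.14 in T2214, 44.2 in T2234 and 65.8 in T2314, a log2 fold change of 5.54 (SE 1.33). The low values rest on 2, 3 and 22 reads, so the size of this fold change is imprecise although the sets do not overlap.

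*Ppara*, a nuclear receptor that governs fatty acid oxidation genes, was at 5.96, 11.4 and 7.18 CPM in T1224, T2224 and T1314, against 13.1, 15.4, 33.6 and 50.9 CPM in T1324, T2214, T2234 and T2314 (log2 fold change 1.84, SE 0.51). *Cox8b*, the muscle and brown fat form of a cytochrome c oxidase subunit, was at 52.0, 105 and 52.5 CPM in those low libraries and at 114, 154, 222 and 306 CPM in those high libraries (1.56, SE 0.40). T2224 was the low library closest to the high set for both genes. *Letmd1*, a mitochondrial protein needed for brown fat function, was at 36.9 to 53.5 CPM in the low and 59.0 to 149 CPM in the high libraries (1.26, SE 0.37). *Esrra*, the estrogen-related receptor alpha, was at 36.7 to 45.4 and 51.3 to 84.1 CPM (0.69, SE 0.19). *Adrb3*, the beta-adrenergic receptor of adipocytes, was at 183 to 248 CPM in the low and 252 to 331 CPM in the high libraries (0.45, SE 0.16), so that T1224 and T1324 nearly met.

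Other members were higher on average but overlapped between the sets, and not all of these are named. *Dio2*, the deiodinase that activates thyroid hormone, was at 2.62, 3.58 and 7.12 CPM in the low libraries and at 6.39, 6.56, 55.6 and 12.4 CPM in T1324, T2214, T2234 and T2314 (log2 fold change 2.22, SE 0.85), and its mean rested on T2234. *Otop1*, a proton channel, was at 1.63, 2.53 and 20.0 CPM in T1224, T2224 and T1314 against 15.9 to 65.0 CPM (2.22, SE 0.86), and T1314 exceeded T1324. *Acot11*, a thioesterase of brown fat, showed the same overlap, with 3.05 to 21.5 CPM in the low and 12.1 to 115 CPM in the high libraries (2.52, SE 0.99). *Gk*, glycerol kinase, had a log2 fold change of 1.65 (SE 0.59), *Kcnk3*, a potassium channel, 1.33 (SE 0.46), and *Plin5*, a lipid droplet protein that contacts mitochondria, 1.19 (SE 0.42). The coactivators *Ppargc1a* and *Ppargc1b*, which drive mitochondrial biogenesis, had 1.06 (SE 0.41) and 1.15 (SE 0.41), and the high values of *Ppargc1a* were again in T2234 (58.9 CPM) and T2314 (34.5 CPM).

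Transcription factors of brown and beige adipocyte identity did not follow *Ucp1*. *Prdm16* was at 11.1, 13.3 and 10.7 CPM in T1224, T2224 and T1314 and at 6.91 (T2234) to 12.6 CPM (T1324) in the high libraries (log2 fold change -0.09, SE 0.21). *Ebf2* was at 16.0 to 31.9 CPM in the low and 18.2 to 27.4 CPM in the high libraries (-0.01, SE 0.25). The SEs leave room for moderate differences in either direction. *Zic1*, which marks classical brown fat, was at 1.40 CPM in T2224 and 1.93 CPM in T2234 and at or below 0.11 CPM in the other 5 libraries, and so did not order with *Ucp1*. Of the markers proposed for beige cells, *Tmem26* (-0.75, SE 0.76), *Cited1* (0.43, SE 0.62), *Slc29a1* (0.06, SE 0.14) and *Tbx1* (0.89, SE 0.75) overlapped between the sets. *Tnfrsf9*, another such marker and under the filter, ran the other way without overlap. It was at 0.78 to 2.27 CPM in the low and 0.33 to 0.69 CPM in the high libraries, values too low to compare firmly. The plot of thermogenic genes shows both patterns side by side.

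**Figure D1:**
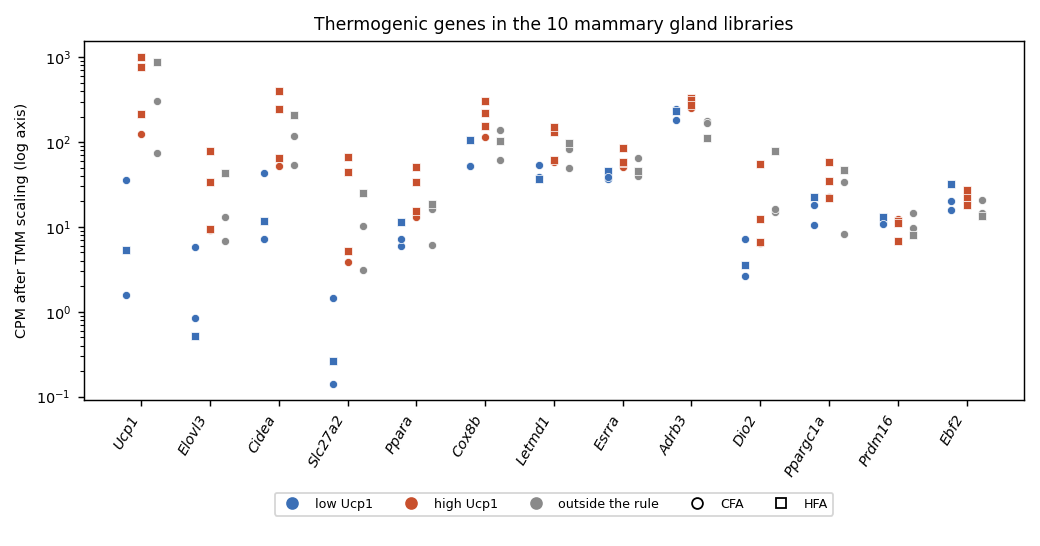
CPM after TMM scaling (log axis) of *Ucp1* and 12 genes of the thermogenic list in each of the 10 libraries, 1 point per library (blue, 3 low *Ucp1*; red, 4 high; grey, the 3 libraries outside the rule; circles CFA, squares HFA). *Elovl3*, *Cidea*, *Slc27a2*, *Ppara*, *Cox8b*, *Letmd1*, *Esrra* and *Adrb3* do not overlap between blue and red, while *Dio2*, *Ppargc1a*, *Prdm16* and *Ebf2* do.

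The 3 libraries outside the rule took no part in the split. Of the 30 thermogenic genes tested, 21 in T1334, 16 in T2334 and 7 in T1234 exceeded the highest low library, compared with 24 in T2234, 23 in T2314, 12 in T1324 and 11 in T2214. The share of all genes exceeding the highest low library was not counted, so no excess is read from these counts. *Cidea* was at 54.2 CPM in T1234, 119 in T1334 and 211 in T2334, in the order of *Ucp1* in these libraries. *Slc27a2* was at 3.12, 10.2 and 25.3 CPM and *Elovl3* followed the same order, from 6.80 to 43.2 CPM. *Ppara*, at 6.13, 16.4 and 18.5 CPM, and *Letmd1*, at 49.9, 83.7 and 96.3 CPM, kept that order too. *Adrb3* did not, being lowest in T2334 (110 CPM), below each of the 7 libraries of the rule.

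Genes of mitochondrial fatty acid oxidation were mostly higher in the high libraries. In 14 of the 22 genes tested all high libraries lay above all low (5.09% of all genes), and the median log2 fold change was 0.77, with 21 of 22 above 0. *Cpt2*, the inner membrane carnitine palmitoyltransferase, was at 106, 128 and 137 CPM in T1224, T2224 and T1314 and at 182, 181, 236 and 265 CPM in T1324, T2214, T2234 and T2314 (0.86, SE 0.18). *Slc25a20*, which carries acylcarnitines into the matrix, was at 70.2 to 92.3 CPM in the low and 107 to 241 CPM in the high libraries, the largest log2 fold change of the list (SE 0.31). *Acads* (0.75, SE 0.18), the short-chain acyl-CoA dehydrogenase, and *Echs1* (0.77, SE 0.21), the short-chain enoyl-CoA hydratase, were apart as well. *Acsl1*, which activates long-chain fatty acids, was at 1766 to 2145 CPM in the low and 2123 to 3084 CPM in the high libraries and overlapped narrowly (0.50, SE 0.22). *Cpt1a*, the outer membrane carnitine palmitoyltransferase of liver type, was the exception, at 119.6 to 134 CPM in the low and 67.7 to 118 CPM in the high libraries (-0.29, SE 0.19), and *Cpt1b*, the muscle and brown fat form, was at 0.33 to 1.13 and 0.88 to 2.07 CPM (0.98, SE 0.52).

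Peroxisomal oxidation shared the direction with a smaller median (0.37), 4 of 14 genes being apart and higher, beside 5.09% of all genes. *Ehhadh*, the peroxisomal bifunctional enzyme, was at 34.8 to 44.8 CPM in the low and 54.9 to 176 CPM in the high libraries, with T2234 and T2314 again the highest (1.61, SE 0.40). *Crat*, carnitine acetyltransferase, was at 241 to 410 and 440 to 764 CPM (0.94, SE 0.27).

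The tricarboxylic acid cycle and the nuclear genes of the respiratory chain were higher in the high libraries throughout. In 10 of 24 cycle and 35 of 55 nuclear respiratory chain genes all high libraries exceeded the low (5.09% of all genes). The medians were 0.63 and 0.54, and every tested gene of both lists was above 0. *Ndufs7* of complex I was at 73.6, 96.5 and 74.0 CPM in T1224, T2224 and T1314 and at 106, 125, 130 and 188 CPM in T1324, T2214, T2234 and T2314 (0.81, SE 0.21). *Uqcrq* of complex III was at 114 to 143 and 168 to 308 CPM (0.82, SE 0.22), and *Atp5b*, the catalytic subunit of ATP synthase, at 1342 to 1906 and 2009 to 3285 CPM (0.63, SE 0.26). Of the cycle genes, *Idh3g* and *Idh3b*, subunits of isocitrate dehydrogenase, had 0.75 (SE 0.23) and 0.78 (SE 0.25), and *Dlst*, of the oxoglutarate dehydrogenase complex, 0.76 (SE 0.24). *Ogdh*, of the same complex, overlapped between the sets (0.93, SE 0.30).

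T2314, with the most *Ucp1* of the 7, set the top of these lists. It was the highest of the 7 libraries for 54 of 55 nuclear respiratory chain genes and 19 of 22 fatty acid oxidation genes, and T1224, the library with the least *Ucp1*, was the lowest for 44 and 15. Without T2314 the median of the nuclear respiratory chain fell to 0.35 and that of fatty acid oxidation to 0.58. As differences of mean log2 CPM within the CFA libraries alone (1 high, 2 low) the medians were 0.33 and 0.44. Within the HFA libraries alone (3 high, 1 low) they were 0.43 and 0.70. These values are not fitted and have no test, since each diet leaves a single library on 1 side. With diet as a term in the fit the medians were 0.43 and 0.63.

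The transcripts of the mitochondrial genome were less clearly separated. Of 11 tested, 0 were apart (5.09% of all genes apart and higher), with a median of 0.55 that dropped to 0.25 without T2314. *mt-Co1*, a cytochrome c oxidase subunit, was at 23866, 33502 and 26265 CPM in T1224, T2224 and T1314 and at 30850, 31431, 34706 and 56853 CPM in T1324, T2214, T2234 and T2314 (0.51, SE 0.49). T2314 alone stood away from the low libraries. *mt-Co3*, *mt-Co2* and *mt-Atp6* had at most 110 CPM in any library and vary irregularly, and since near-identical nuclear copies can take up their reads these values are uncertain.

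Catabolism of branched-chain amino acids followed fatty acid oxidation. The high libraries all lay above the low in 14 of 21 genes, beside 5.09% of all genes. The median was 0.56 and every gene was above 0. *Bcat2*, the mitochondrial transaminase that starts the pathway, was at 91.3, 78.0 and 65.8 CPM in T1224, T2224 and T1314 and at 105, 120, 190 and 192 CPM in T1324, T2214, T2234 and T2314 (1.01, SE 0.25). *Bckdha* and *Bckdhb*, subunits of the dehydrogenase of branched-chain ketoacids, had 0.91 (SE 0.22) and 0.56 (SE 0.14), and *Bckdhb* lay within 41.3 to 42.4 CPM in all 3 low libraries. *Ivd*, isovaleryl-CoA dehydrogenase, had 0.88 (SE 0.22), and *Aldh6a1*, which acts late in valine breakdown, 0.70 (SE 0.25). *Ckb*, the creatine kinase of a cycle that can release heat without *Ucp1*, averaged 16.0 ± 1.11 CPM (SD, n = 3) in the low libraries. It averaged 18.3 ± 2.22 CPM (n = 4) in the high libraries (0.24, SE 0.15). Among the 7 genes of creatine and calcium cycling 0 were apart, beside 5.09% of all genes apart and higher.

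Skeletal muscle is also rich in these mitochondrial genes, and its markers varied among the libraries. The summed level of 19 muscle markers was 26678 CPM in T1224, 75662 in T2224 and 31268 in T1314, and 49522 in T1324, 66441 in T2214, 61295 in T2234 and 78367 in T2314. The sets overlapped, 0 of the 18 markers tested were apart (5.09% of all genes apart and higher), and the list median was 0.52. *Myh4*, a fast myosin heavy chain, was at 6226, 17521 and 8312 CPM in the low and at 12044, 16072, 12880 and 18499 CPM in the high libraries. T2224 held more muscle RNA than 3 of the 4 high libraries, and its summed fatty acid oxidation genes (5383 CPM) were below those of all 4 (6416 to 10530 CPM), and so were its nuclear respiratory chain genes (11224 against 12036 to 20034 CPM). Outside the rule, T2334, with the most *Ucp1* of the 10 libraries by raw CPM and the least muscle RNA (958 CPM), held 5406 CPM of fatty acid oxidation and 8954 CPM of nuclear respiratory chain genes, inside the range of the low libraries (4764 to 5596 and 8520 to 11224 CPM). T1334, with 61210 CPM of muscle markers, held 6844 and 13595 CPM, inside the range of the high libraries. The part of muscle RNA in the mitochondrial differences was not tested. With the mean of the muscle markers as a term, the median of fatty acid oxidation was 0.64, of the nuclear respiratory chain 0.42 and of the thermogenic list 0.74. In RNA of whole fat pads, more cells of a type and more RNA per cell cannot be told apart.

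**Figure D2:**
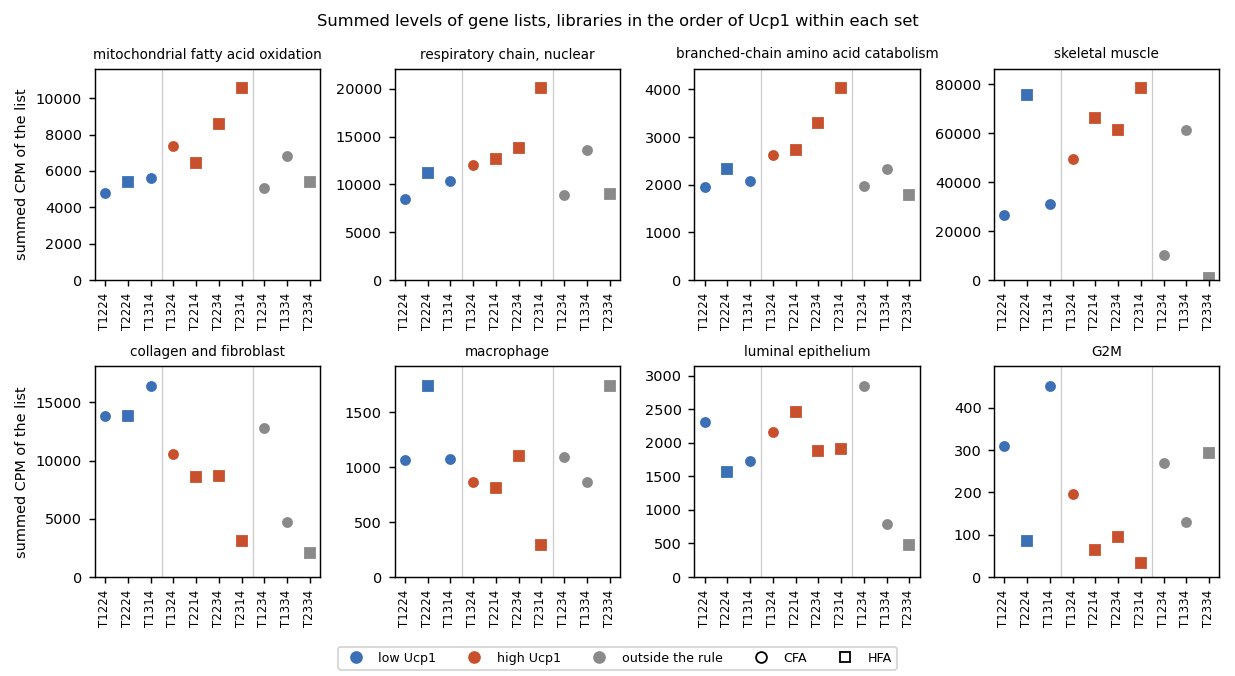
Summed CPM of 8 gene lists (linear axes from 0) in each of the 10 libraries, ordered by *Ucp1* within the low (blue), high (red) and outside (grey) libraries, with circles for CFA and squares for HFA. Fatty acid oxidation, respiratory chain and branched-chain amino acid genes are higher in each red than in each blue library, collagen and fibroblast genes are lower, and muscle genes overlap because of T2224 at 75662 CPM.

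General adipocyte genes were modestly higher with *Ucp1*. In 7 of 20 the high libraries lay above the low, beside 5.09% of all genes. The median was 0.44, and the summed level was 22185 to 27454 CPM in the low and 29217 to 36320 CPM in the high libraries. *Gpd1*, glycerol-phosphate dehydrogenase, was at 663, 608 and 1109 CPM in T1224, T2224 and T1314 and at 1381, 1299, 1993 and 1807 CPM in T1324, T2214, T2234 and T2314 (1.08, SE 0.29). *Pnpla2*, the adipose triglyceride lipase, was at 920 to 1172 and 1494 to 2361 CPM (0.86, SE 0.23), and *Lipe*, the hormone-sensitive lipase, at 602 to 688 and 852 to 988 CPM (0.54, SE 0.15). *Fabp4*, the fatty acid binding protein of all adipocytes, overlapped (0.29, SE 0.29). Of 20 genes of fatty acid and triglyceride synthesis 2 were apart, a count too small to set against the 5.09% of all genes. They were *Dgat1*, which makes triglycerides (0.59, SE 0.14), and *Srebf1*, a lipogenic transcription factor (0.47, SE 0.16).

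In adrenergic and nerve-linked signalling 4 of 13 genes were apart, beside 5.09% of all genes. *Prkar2b*, the regulatory subunit of protein kinase A in fat, was at 438, 409 and 441 CPM in T1224, T2224 and T1314 and at 704, 535, 681 and 959 CPM in T1324, T2214, T2234 and T2314 (0.80, SE 0.21). *Adcy3*, an adenylate cyclase of adipocytes, was at 18.3 to 24.3 and 26.8 to 69.0 CPM (1.24, SE 0.37), *Nrg4*, a neuregulin secreted by brown fat, at 59.7 to 73.6 and 80.3 to 111 CPM (0.52, SE 0.15), and *Prkaca*, the catalytic subunit of protein kinase A, at 131 to 166 and 171 to 226 CPM (0.46, SE 0.15).

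Collagen and fibroblast genes ran the other way. All 21 were below 0, their median being -0.65, and in 11 of them the high libraries all lay below the low, beside 7.94% of all genes. *Col3a1*, a fibrillar collagen, was at 3381, 2766 and 4384 CPM in T1224, T2224 and T1314 and at 2164, 1504, 1377 and 359 CPM in T1324, T2214, T2234 and T2314 (-1.33, SE 0.50). *Col5a2*, which regulates collagen fibril diameter, was at 307 to 420 and 68.6 to 246 CPM (-1.01, SE 0.36), and *Mmp3*, a matrix metalloproteinase, at 68.1 to 93.5 and 8.10 to 46.2 CPM (-1.34, SE 0.45). *Postn*, periostin, overlapped (-1.26, SE 0.47). T2314 was the lowest library for 20 of the 21 genes, and without it the median was -0.50. Outside the rule the summed level was 12784 CPM in T1234, 4704 in T1334 and 2106 in T2334, against 13803 to 16453 CPM in the low and 3140 to 10604 CPM in the high libraries.

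Macrophage markers were below 0 in all 12 genes (median -0.69), but 1 of 12 was apart, a share near the 7.94% of all genes. This was *Lyz2*, lysozyme, at 407, 513 and 406 CPM in T1224, T2224 and T1314 and 283, 235, 347 and 94.3 CPM in T1324, T2214, T2234 and T2314. T2224 was the highest library for 11 of the 12 and T2314 the lowest for 11, and without T2224 the median was -0.32. Endothelial genes had a median of -0.03, *Pecam1* being at 166 to 193 and 141 to 184 CPM.

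Luminal epithelial markers had a median of 0.17, which was -0.09 without T2214, and 3 of 14 were apart and higher, beside 5.09% of all genes. *Cldn4*, a tight junction protein, was at 37.1 to 53.0 and 67.6 to 96.2 CPM (0.78, SE 0.18), *Prlr*, the prolactin receptor, at 260 to 318 and 357 to 587 CPM (0.77, SE 0.19), and *Krt18*, a luminal keratin, at 226 to 290 and 303 to 401 CPM (0.44, SE 0.15). Basal markers were below 0 in all 8 genes with none apart, beside 7.94% of all genes apart and lower. *Krt17* was at 112, 32.4 and 62.9 CPM in T1224, T2224 and T1314 and at 12.2 to 38.3 CPM in the high libraries (-1.21, SE 0.46). T1224 was the highest library for 7 of the 8 basal genes and T2314 the lowest for 7. Their median was -0.57, and it was -0.20 with diet as a term, -0.11 with the muscle term and -0.31 without T1224.

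G2M genes of dividing cells had the lowest median of the lists, -1.45, with all 20 below 0 but 0 apart, beside 7.94% of all genes apart and lower. *Mki67*, a marker of cycling cells, was at 72.6, 15.2 and 114 CPM in T1224, T2224 and T1314 and at 40.8, 10.7, 16.7 and 4.10 CPM in T1324, T2214, T2234 and T2314. Levels were higher in the CFA libraries of either set, and with diet as a term the median was -0.69. With the mean of the muscle markers as a term it was -0.39. It was -0.93 without T1314. S phase genes had a median of -0.46, and -0.07 with diet as a term.

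**Figure D3:**
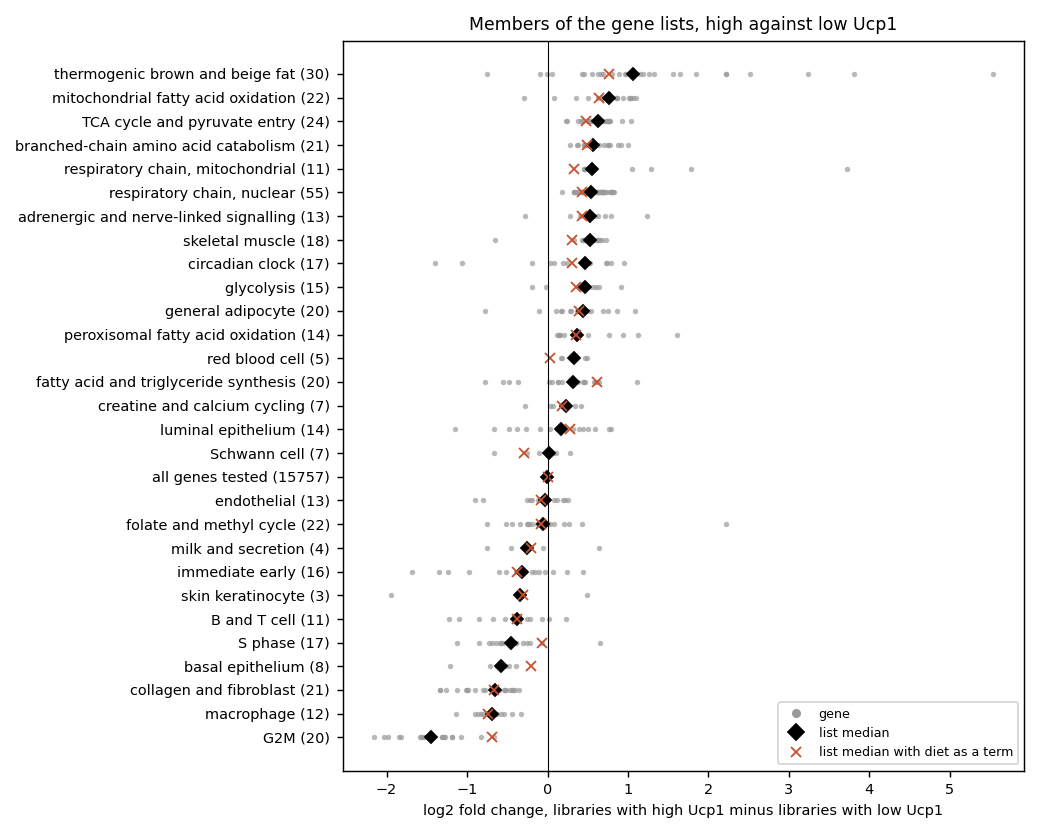
Log2 fold change, high minus low *Ucp1*, of each tested gene (grey points), the median of each list (black diamonds) and the median with diet as a term (red crosses), with the number of genes tested in brackets. Thermogenic and mitochondrial lists lie highest (medians 1.06 and 0.77 for the thermogenic and fatty acid oxidation lists), G2M, macrophage and collagen lists lowest, and the median of all genes tested is -0.01.

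Circadian and immediate early genes also differed between the libraries, whose time of collection was not given in the sources used here. The output genes *Hlf*, at 29.6, 32.5 and 25.8 CPM in T1224, T2224 and T1314 against 46.2, 39.6, 46.7 and 56.7 CPM in T1324, T2214, T2234 and T2314 (0.74, SE 0.15), *Dbp* (0.80, SE 0.23) and *Nr1d1* (0.73, SE 0.25) were apart and higher. *Arntl*, the clock activator that oscillates in antiphase to them, was at 7.85 to 13.2 CPM in the low and 2.76 to 6.77 CPM in the high libraries (-1.06, SE 0.30), and its partner *Npas2* was apart and lower as well (-1.39, SE 0.47). These are 5 of 17 clock genes, 3 higher and 2 lower. Of all genes tested, 5.09% were apart and higher and 7.94% apart and lower, the background for both lists. Of 16 immediate early genes, *Egr1*, at 48.3, 38.6 and 88.5 against 18.9, 35.4, 14.9 and 19.5 CPM (-1.35, SE 0.35), *Egr2* (-1.24, SE 0.46) and *Egr3* (-1.69, SE 0.49) were apart and lower. Their part in the other differences was not tested.

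In the folate and methyl cycle, the pathway closest to the diets, 0 of 22 genes were apart and the median was -0.05. Of all genes tested, 5.09% were apart and higher and 7.94% apart and lower, so this count is not read as a result. The largest difference was that of *Gnmt*, glycine methyltransferase, at 0.07 to 0.44 CPM in the low and 0.33 to 2.07 CPM in the high libraries, which is too low to compare firmly.

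Across all genes, *Wfdc2* had the smallest p (adjusted p 0.0683, edgeR). It encodes a secreted whey acidic protein of epithelia (chr2:164562715-164568510, GRCm38.p6). *Wfdc2* was at 30.8 CPM in T1224, 30.3 in T2224 and 22.4 in T1314, and at 108 in T1324, 82.4 in T2214, 81.8 in T2234 and 77.6 in T2314 (1.70, SE 0.16). It separated the sets without following the amount of *Ucp1* within them, and in the libraries outside the rule it was at 51.0 CPM in T1234, 14.3 in T1334 and 11.6 in T2334, the reverse of their *Ucp1* order. The summed luminal markers were at 2852, 794 and 482 CPM in those 3 libraries and 1562 to 2462 CPM in the 7. *Tmprss2*, an epithelial serine protease, behaved alike, with 28.5 to 42.3 CPM in the low, 73.7 to 108 CPM in the high libraries (1.38, SE 0.19) and 47.1, 8.86 and 7.08 CPM outside the rule.

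The other genes of smallest p among those higher in the high libraries had an adjusted p of 0.332 each. *Tst*, a mitochondrial thiosulfate sulfurtransferase, was at 29.3 to 35.0 and 52.4 to 79.6 CPM (1.00, SE 0.16), and *Oplah*, the oxoprolinase of glutathione turnover, at 62.3 to 84.5 and 112 to 179 CPM (1.07, SE 0.20). *Gclc*, which makes the precursor of glutathione, was at 52.2 to 63.3 and 73.8 to 101 CPM (0.69, SE 0.13). *Abcc8*, the sulfonylurea receptor (0.99, SE 0.17), and *Atp2c2*, a calcium pump of the secretory pathway (1.46, SE 0.27), were below 20 CPM in every library. *Isoc2a*, *Fer1l4*, *Mcrip2*, *Tmem143* and *Tmem56* had log2 fold changes from 0.79 to 1.26.

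Among genes lower in the high libraries, *Thbs1*, the matrix glycoprotein thrombospondin, was at 250, 215 and 298 CPM in T1224, T2224 and T1314 and at 82.0, 78.6, 109 and 41.9 CPM in T1324, T2214, T2234 and T2314 (-1.65, SE 0.29). *Cd44*, the hyaluronan receptor, was at 55.3 to 66.2 and 18.0 to 34.8 CPM (-1.17, SE 0.20), *Mfap4*, of elastic microfibrils, at 12.3 to 18.2 and 1.60 to 5.90 CPM (-1.87, SE 0.37), and *Hpgd*, which degrades prostaglandins, at 18.4 to 27.2 and 9.79 to 12.9 CPM (-0.99, SE 0.18). *Ccdc88a*, an actin-binding protein, was at 26.1 to 30.3 and 12.3 to 16.9 CPM (-0.92, SE 0.15). *Rassf5*, a Ras effector of lymphocytes, was at 14.7 to 15.9 and 7.21 to 8.96 CPM (-0.82, SE 0.14) and at 34.1, 60.3 and 145 CPM in the libraries with high *Ighd*. *Cytip*, of lymphocytes and dendritic cells (-1.78, SE 0.39), was at 95.7 to 238 CPM there. *Slc5a8*, a monocarboxylate transporter (-1.83, SE 0.39), *Baz1a*, *Rnf19a*, *Ncoa7* and *Tubb2b* (-0.58 to -1.36) completed the 12.

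**Figure D4:**
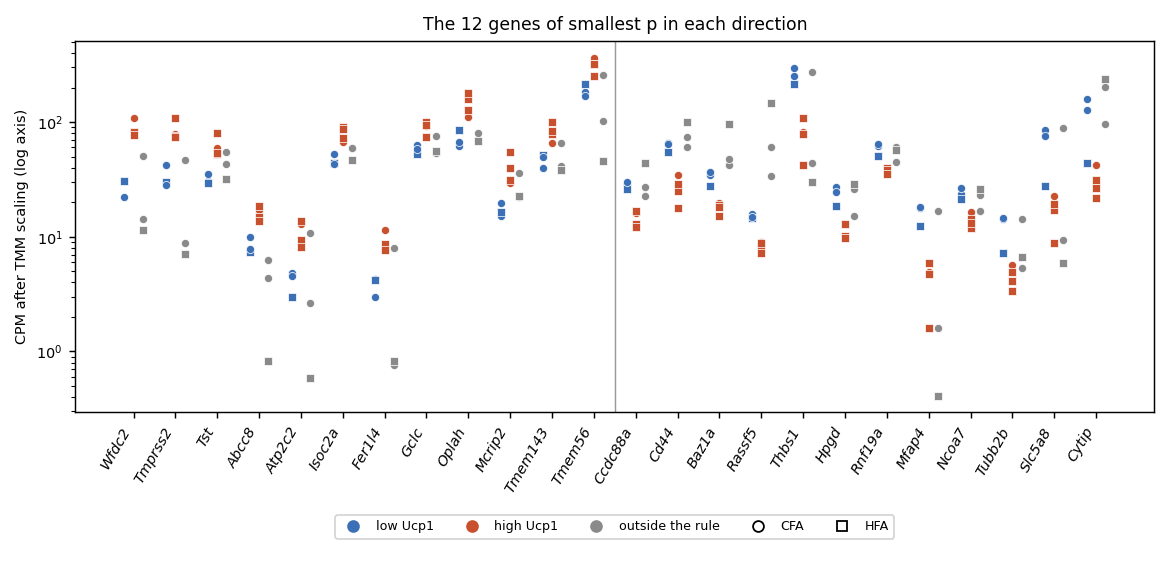
CPM after TMM scaling (log axis) in each of the 10 libraries for the 12 genes of smallest p that were higher (left of the line) and the 12 that were lower (right) with high *Ucp1* (blue low, red high, grey outside the rule, circles CFA, squares HFA). Blue and red points do not overlap, a condition of the choice, while grey points of *Wfdc2* and *Tmprss2* fall to 11.6 and 7.08 CPM and those of *Rassf5* reach 145 CPM.

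The number of genes passing depended on T2224, the low library from an HFA mouse. Without it, 317 of 16082 genes passed (191 higher, 126 lower). Higher were 2 of 31 thermogenic genes (*Cox8b* and *Plin5*), 1 of 55 nuclear respiratory chain genes (*Atp5g1*) and 5 of 18 muscle genes. Lower were 2 of 6 genes of milk and secretion. Of the genes of fatty acid oxidation (22), the tricarboxylic acid cycle (24) and branched-chain amino acid catabolism (21), 0 passed. The muscle median was 1.18. The 2 remaining low libraries were then both CFA. Without any other library 0 genes passed, and the number at an unadjusted p under 0.05 ranged from 1058 (without T1224) to 3918 (without T2224).

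The labelled diets, which the rule did not use, were compared over all 10 libraries, 7 of which also make up the sets. The paper had the cage of the mice in its model. Cage is not in the sample labels and was left out of this fit and of the fit between the sets, so the results are not directly comparable with the paper's. *Ucp1* had a log2 fold change of 2.51 (HFA minus CFA, SE 1.26, adjusted p 0.681 in edgeR). *Cidea* had 1.82 (SE 0.86, adjusted p 0.673), *Slc27a2* 2.98 (SE 1.19, adjusted p 0.657) and *Plin5* 1.34 (SE 0.30, adjusted p 0.576) in that fit. Of the 30 thermogenic genes 0 passed, with 0 of 15610 genes passing in all (0%) and 1149 (7.36%) at an unadjusted p under 0.05. At that unadjusted threshold 11 of the 30 were higher and 1 was lower in HFA, and the median log2 fold change of the 30 was 1.01. Of the 30, 27 were above 0. The share of all genes above 0 was not counted in this fit, so no excess is read from that count.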

How the data were processed

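Mammary gland RNA from 5 CFA and 5 HFA mice was analysed. The authors prepared TruSeq libraries, aligned the reads to GRCm38 (mm10) with TopHat2 2.0.14 and Bowtie2 2.2.5 and counted them per gene with HTSeq 0.6.1, and the deposited values are raw counts for 46983 Ensembl genes with 5 summary lines, which were left out. Strand use in counting was not given in the sources used here, so overlapping and antisense genes are uncertain. Reads on no gene made up 3.43% to 5.47% and reads with several alignments 28.8% to 33.9% of the counted lines. Symbols were found for 46488 genes.

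Tests used R 4.3.3 and edgeR 4.0.16 (filterByExpr, TMM, estimateDisp, glmQLFit, glmQLFTest, threshold 0.05 after Benjamini-Hochberg adjustment), with the likelihood ratio test, DESeq2 1.42.0 and limma 3.58.1 (voom) as alternatives, and were tested on simulated data. An SE is the fitted log2 difference over the square root of F. Other alternatives were scaling, filters, terms for diet, muscle markers and the second title digit, *Ucp1* as a continuous measure, all 10 libraries with a B and T cell term, and leaving out each library.

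Members and gene lists were chosen with earlier results of these data known. All thermogenic genes were covered by the counts of the list, and most but not all were named. Also named were the 12 genes in each direction with a symbol, sets apart and a mean of at least 5 CPM (since 0 genes passed, by smallest unadjusted p). The most abundant member of most lists was named too. Other named members were chosen after their values were seen. Promoters are the first RefSeq entry per gene. A gene of a list is not reported here by name.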

Additional observations from a re-analysis of the deposited data

Results flagged for a closer look

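Among 166 values examined, 6 had a library far from the other 3 of the high set by Dixon's criterion, which chance alone exceeds in about 1 of 20 groups. So many flags are no more than chance alone would give among 166 values. *Dio2* was at 55.6 CPM in T2234 against 6.39 to 12.4 CPM in the others. *Wfdc2* was at 108 CPM in T1324 against 77.6 to 82.4 CPM. T2314 stood apart for *Tmprss2* (108 against 73.7 to 78.9 CPM), *mt-Co1* (56853 against 30850 to 34706 CPM), *Bckdhb* (74.2 against 52.7 to 56.2 CPM) and *Egr2* (3.12 against 8.30 to 8.84 CPM).

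The difference between the sets was itself compared between diets with an interaction term (edgeR's quasi-likelihood test, added after the data were seen), and 1 of 15757 genes passed, with 682 at an unadjusted p under 0.05. This was *Dmbt1*, a secreted mucin-like glycoprotein of epithelia (interaction -6.63 on the log2 scale, adjusted p 0.0182). It was at 0.78 and 1.06 CPM in the low CFA libraries T1224 and T1314 and at 267 CPM in the high CFA library T1324. In the HFA libraries it was at 245 CPM in T2224 (low) and at 702, 848 and 526 CPM in T2214, T2234 and T2314 (high). Outside the rule it was at 6.58 CPM in T1234, 0.98 in T1334 and 28.4 in T2334. The interaction rests on 1 high CFA and 1 low HFA library.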

How the results depend on the processing

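Against 0 genes passing between the *Ucp1* sets, 1 (*Wfdc2*) passed with no filter, 87 by the likelihood ratio test, 141 by DESeq2, 2 with *Ucp1* as a continuous measure and 0 to 317 when single libraries were left out. Between diets 33 passed by the likelihood ratio test, 60 by DESeq2 and 0 to 6 with a library left out (6 without T2334). Near-zero values changed sign for *Ebf2* (0.0638 by voom, 0.0102 per doubling of *Ucp1*, 0.0589 without T1324, 0.323 without T2224, 0.0578 without T2234), *Slc29a1* (-0.00497 per doubling, -0.0115 without T1324), *Cited1* (-0.14 without T1324) and *Prdm16* (0.0148 without T2224, 0.0478 without T2234). The cause was not tested. With 4 against 3 libraries and 22 reads of *Ucp1* in T1224, low values are imprecise. No paired analysis was possible because the replicate numbers follow accession order and pair no mice.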
